A study of Arabidopsis thaliana with 6 samples.

Results

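Genes for late embryogenesis abundant (LEA) proteins and dehydrins were read out in seedlings of the line h3.3ko;HTR5 and of wild type. The 10 genes were chosen by their locus identifiers: RAB18, RD29B, LEA4-5, LEA7, LTI30, XERO1, ERD14, EM1, EM6 and LEA14. They are 10 of the 27655 genes in the deposited table, and all 10 were found there. Wild type Arabidopsis thaliana of the Col background gave 3 RNA-seq libraries, and h3.3ko;HTR5 gave 3 libraries. Both groups were whole seedlings aged 10 days, kept at 22 °C in days of 16 h light and 8 h dark, and the labels name no drought, cold or hormone treatment. The name of the line joins a knockout of H3.3, the histone H3 variant placed on chromatin outside replication, with HTR5, one of its genes. The sources used here do not give how the line was made, which promoter drives HTR5 in it or whether it stands for 1 transformant. Values are TPM, a read number divided by gene length and scaled to the library.

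LEA proteins are small, hydrophilic and mostly unstructured proteins that accumulate in maturing seeds and in tissues that lose water, where they are thought to protect membranes and other proteins. Dehydrins are the LEA class with conserved lysine-rich segments. Many LEA genes answer to the hormone abscisic acid (ABA) through bZIP factors of the ABF and ABI5 type, which bind the ABA-responsive element (ABRE), and some also answer to cold through CBF factors, which bind the dehydration-responsive element (DRE).

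The reads recovered from the TPM came to 13792031 to 14498093 per library. HTR8, one of the H3.3 genes, read 289 to 323 TPM in the Col libraries and 3.19 to 5.2 TPM in the h3.3ko;HTR5 libraries, while HTR4 fell 2.13-fold and HTR5 fell 1.40-fold on the means. Since no label ties the libraries of a group to separate plantings, each p-value speaks of the spread among these libraries, and that spread may be technical. In bulk seedlings fewer cells that express a gene and less RNA per cell cannot be told apart.

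The 10 genes did not move together. LTI30 and LEA14 fell in h3.3ko;HTR5, RD29B and EM6 rose, and the other 6 did not pass the test (limma on log2(TPM + 1), two-sided, Benjamini-Hochberg adjusted p under 0.05 over all tested genes). All 10 were among the 19013 genes whose TPM averaged 1 or more over all libraries. EM1 reached that mean only through h3.3ko;HTR5. The 4 calls among 10 genes stand beside 12% of all tested genes called, 3.7% as higher and 8.32% as lower. The groups did not overlap in 4 genes that were higher and 3 that were lower, beside 10.8% and 20.4% of all tested genes. The median log2 fold change was 0.09 over the 10 genes and -0.03 over all tested genes. Both decreases passed whichever library was left out. Both increases were lost without Col replicate 2 or 3 or without h3.3ko;HTR5 replicate 1 or 3, which left 2 calls among the 10 genes.

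**Figure D1:**
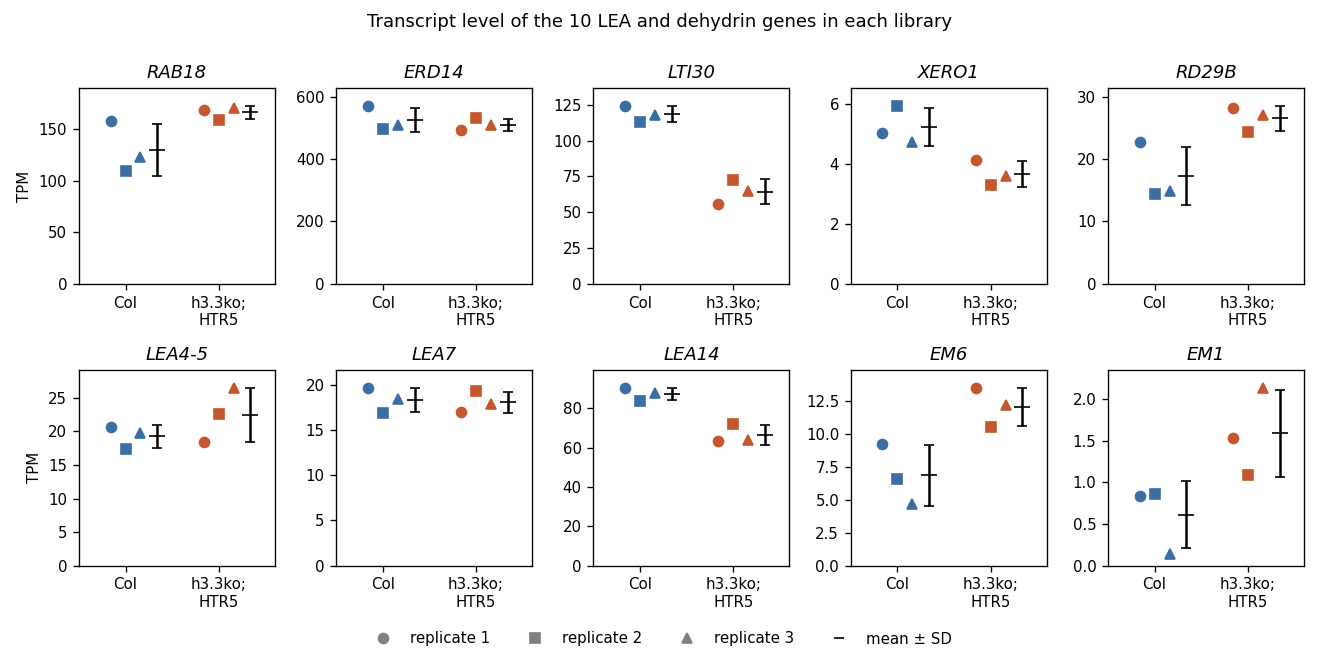
TPM of each of the 10 genes in the 3 Col and 3 h3.3ko;HTR5 libraries, 1 panel a gene, each axis starting at 0; symbols mark the replicate number, and black bars give the mean ± SD. LTI30 and LEA14 are lower in all 3 h3.3ko;HTR5 libraries, RD29B and EM6 are higher in all 3, and the circle of Col replicate 1 is the highest Col point in 8 of 10 panels.

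In wild type the levels differed widely between the genes. ERD14 was the most abundant at 526 ± 39 TPM (SD, n = 3 here and below). RAB18 followed at 130.0 ± 25.0 TPM and LTI30 at 118 ± 5.54 TPM, a pair that does not differ beyond its spread. LEA14 stood at 87.3 ± 3.3 TPM. LEA4-5, LEA7 and RD29B lay at 19.3 ± 1.73, 18.3 ± 1.38 and 17.3 ± 4.67 TPM, within one another's spread. EM6 was at 6.85 ± 2.3 TPM and XERO1 at 5.22 ± 0.63 TPM, and EM1 was the lowest at 0.61 ± 0.41 TPM. In h3.3ko;HTR5 the order changed: RAB18 stood at 167 ± 6.33 TPM, well above LTI30 at 64.4 ± 8.52 TPM. On the deposited gene-span scale RD29B moved from below LEA4-5 and LEA7 to above them, at 26.5 ± 2.02 TPM against 22.5 ± 4.05 and 18.0 ± 1.20 TPM, although RD29B and LEA4-5 still overlap in their spread. The deposited values divide by the whole gene span, introns included, which places LEA7 low, since its span is 1811 bases and its exons cover 904. With exon lengths LEA7 came to 27.9 TPM in Col, above LEA4-5 at 16.0 and RD29B at 15.3 TPM on the same scale. In h3.3ko;HTR5 the exon-length values were 27.6 TPM for LEA7, 23.4 for RD29B and 18.8 for LEA4-5, so on that scale RD29B stayed below LEA7.

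The sharpest decrease was that of a dehydrin best known from cold and drought. LTI30 (AT3G50970, chromosome 3, 18940643 to 18941611, plus strand, TAIR10.1) encodes a lysine-rich dehydrin that binds membranes and is induced by low temperature and ABA. It read 124, 113 and 118 TPM in Col replicates 1 to 3. In h3.3ko;HTR5 it read 55.7, 72.7 and 64.7 TPM, so every library was below every Col library. The mean of LTI30 was 1.84-fold lower (log2 fold change of -0.88, SE 0.09, with an adjusted p of 2.81e-04 in limma). XERO1 (AT3G50980, 18941925 to 18942940) is another dehydrin gene, which starts 313 bases downstream of LTI30 on the same strand. XERO1 read 5.02, 5.93 and 4.72 TPM in Col and 4.12, 3.28 and 3.59 TPM in h3.3ko;HTR5. These rest on 30 to 38 and on 22 to 27 reads. The XERO1 groups did not overlap, but the difference did not pass (log2 fold change -0.41, 95% interval -0.70 to -0.13, limma adjusted p = 0.0660). The stretches of 250 bases upstream of LTI30 (chr3:18940393-18940642) and of XERO1 (chr3:18941675-18941924), both on the plus strand of TAIR10.1 from RefSeq, are shown because these neighbours carry different motifs. Capitals mark the ABRE core ACGTG and the DRE core CCGAC on either strand, so that CACGT and GTCGG are the same cores read from the other strand.
LTI30: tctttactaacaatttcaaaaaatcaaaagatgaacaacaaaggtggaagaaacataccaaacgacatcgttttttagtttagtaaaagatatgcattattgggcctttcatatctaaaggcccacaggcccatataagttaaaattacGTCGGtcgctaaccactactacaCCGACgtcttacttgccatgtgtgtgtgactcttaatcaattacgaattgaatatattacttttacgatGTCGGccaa
XERO1: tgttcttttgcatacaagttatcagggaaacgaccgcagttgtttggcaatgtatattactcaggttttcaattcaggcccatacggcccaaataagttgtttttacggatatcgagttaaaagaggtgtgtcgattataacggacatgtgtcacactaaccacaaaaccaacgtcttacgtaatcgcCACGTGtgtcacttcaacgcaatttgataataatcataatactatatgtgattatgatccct
LTI30 holds 3 DRE cores and no ABRE core in this window, while XERO1 holds 1 ABRE core place and no DRE core.

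The other 2 dehydrins did not follow LTI30. RAB18 (AT5G66400, chromosome 5, 26518277 to 26519447, minus strand), the classical marker of the ABA response, read 158, 109 and 123 TPM in Col and 169, 159 and 171 TPM in h3.3ko;HTR5. All 3 h3.3ko;HTR5 libraries lay above the Col libraries, but only just above Col replicate 1. RAB18 missed the threshold narrowly (log2 fold change 0.37 ± 0.11 SE, 95% interval 0.13 to 0.61, limma adjusted p = 0.0502). It passed on recovered reads with voom (adjusted p = 0.00371), without Col replicate 1 (adjusted p = 0.00106) and after quantile normalization (adjusted p = 0.0289). Without Col replicate 2 the adjusted p was 0.142. ERD14 (AT1G76180, chromosome 1, 28586663 to 28587931, minus strand), an acidic dehydrin made in unstressed plants as well and able to bind calcium when phosphorylated, read 570, 497 and 510 TPM in Col. In h3.3ko;HTR5 it read 492, 530 and 507 TPM, and the groups overlapped. Its 95% interval ran from -0.16 to 0.08 on the log2 scale (limma adjusted p = 0.675).

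RD29B and EM6 rose. RD29B (AT5G52300, chromosome 5, 21237021 to 21239531, plus strand) encodes a hydrophilic protein and is induced mainly by ABA and drought. It read 22.7, 14.4 and 14.9 TPM in Col and 28.2, 24.3 and 27.1 TPM in h3.3ko;HTR5. The groups did not overlap, and Col replicate 1 stood nearer to h3.3ko;HTR5 than the other 2 Col libraries did. RD29B was 1.53-fold higher on the means (log2 fold change of 0.61, SE 0.15, with an adjusted p of 0.0235 in limma).

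EM6 and EM1 encode the Em proteins, which are among the most abundant LEA proteins of the dry seed and need the regulators ABI3 and ABI5 there. EM6 (AT2G40170, chromosome 2, 16779552 to 16780368, minus strand) read 9.27, 6.59 and 4.69 TPM in Col and 13.5, 10.6 and 12.2 TPM in h3.3ko;HTR5. It was 1.76-fold higher (log2 fold change of 0.77, SE 0.19, with an adjusted p of 0.0238 in limma), on 24 to 49 reads in Col and 57 to 71 in h3.3ko;HTR5. EM1 (AT3G51810, chromosome 3, 19214722 to 19215831, plus strand) had 6, 6 and 1 reads in Col and 11, 8 and 15 reads in h3.3ko;HTR5. The EM1 groups did not overlap, but the difference did not pass (log2 fold change 0.70, 95% interval 0.15 to 1.25, limma adjusted p = 0.0986). The upstream stretches of RD29B (chr5:21236771-21237020, plus strand), EM6 (chr2:16780369-16780618, minus strand) and RAB18 (chr5:26519448-26519697, minus strand) are shown as those of 2 genes that rose and of the ABA marker, with the same capitals and each read 5′ to 3′ toward the gene.
RD29B: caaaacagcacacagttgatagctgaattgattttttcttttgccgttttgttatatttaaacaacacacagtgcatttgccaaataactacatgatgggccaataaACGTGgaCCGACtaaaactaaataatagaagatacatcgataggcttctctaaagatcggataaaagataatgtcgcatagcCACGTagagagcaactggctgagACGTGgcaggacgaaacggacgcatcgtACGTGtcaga
EM6: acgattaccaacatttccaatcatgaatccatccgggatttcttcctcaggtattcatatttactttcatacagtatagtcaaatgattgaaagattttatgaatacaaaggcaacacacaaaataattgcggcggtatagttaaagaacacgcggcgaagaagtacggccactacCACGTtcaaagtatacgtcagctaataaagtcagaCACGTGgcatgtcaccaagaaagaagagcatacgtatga
RAB18: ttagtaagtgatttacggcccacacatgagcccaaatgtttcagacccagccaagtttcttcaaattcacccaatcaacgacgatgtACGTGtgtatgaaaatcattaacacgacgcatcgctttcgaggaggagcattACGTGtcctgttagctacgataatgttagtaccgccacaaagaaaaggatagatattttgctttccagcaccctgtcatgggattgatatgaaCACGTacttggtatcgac
RD29B holds 4 ABRE core places and 1 DRE core, EM6 holds 2 ABRE core places, 1 of them the palindrome CACGTG, and RAB18 holds 3.

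LEA14 fell, and LEA4-5 and LEA7 did not pass. LEA14 (AT1G01470, chromosome 1, 171525 to 172948, minus strand) belongs to the LEA_2 class, which is unusual among LEA proteins in having a folded structure. It read 90.3, 83.8 and 87.7 TPM in Col and 63.2, 72.1 and 63.6 TPM in h3.3ko;HTR5, with no overlap. LEA14 was 1.32-fold lower (log2 fold change of -0.39, SE 0.06, with an adjusted p of 0.00316 in limma). LEA4-5 (AT5G06760, chromosome 5, 2089445 to 2090430, minus strand), of the LEA_1 class and linked to tolerance of water deficit, read 20.7, 17.4 and 19.8 TPM in Col and 18.4, 22.6 and 26.5 TPM in h3.3ko;HTR5. Its groups overlapped (log2 fold change 0.20, 95% interval -0.07 to 0.47, limma adjusted p = 0.321). LEA7 (AT1G52690, chromosome 1, 19619724 to 19621534, plus strand), of the LEA_4 class, read 19.6, 16.9 and 18.4 TPM in Col and 17, 19.3 and 17.8 TPM in h3.3ko;HTR5. Its groups overlapped as well (log2 fold change -0.02, 95% interval -0.20 to 0.16, limma adjusted p = 0.913). LEA7 overlaps AT1G52695 on the opposite strand by 297 bases and RAB18 overlaps AT5G66410 by 11 bases, and since the strand setting of the counting is not given, reads in these stretches cannot be told apart. None of the exon windows of 50 bases in the 10 genes occurs elsewhere in the genome.

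The rest of the LEA family also moved in both directions. Of 42 further LEA genes 29 were tested, of which 11 rose and 8 fell, beside 3.7% of all tested genes called higher and 8.32% called lower. Within each class all calls had 1 direction, except that in 7 of 16 alternatives 1 or 2 dehydrins were called higher (RAB18, and without Col replicate 1 also AT2G21490) beside the 4 called lower. The LEA_4 class, to which many seed LEA genes belong, rose: 9 of its 12 tested genes outside the 10 were higher and none lower, with a median log2 fold change of 0.78 for these 12. AT4G36600 went from 9.61, 4.63 and 6.06 TPM in Col to 15.4, 11.7 and 15.5 TPM in h3.3ko;HTR5. ECP63, an embryonic cell protein gene, went from 5.36, 3.98 and 4.55 to 9.19, 9.15 and 11.9 TPM, 2.17-fold higher (log2 fold change of 0.97, SE 0.13, with an adjusted p of 0.00155 in limma). In both genes every h3.3ko;HTR5 library exceeded every Col library. AT3G15670 rose from 13.8 ± 1.33 to 27.1 ± 4.07 TPM. AT3G17520, the most abundant of the 9, rose from 30.0 ± 6.63 to 53.2 ± 2.74 TPM, and AT3G02480 rose from 13.2 ± 1.40 to 22.4 ± 1.72 TPM. AT5G44310 and AT4G13560 rose 2.11-fold and 2.17-fold from 3.25 ± 0.82 and 2.33 ± 0.08 TPM, and AT4G13560 overlaps AT4G06105 and AT4G06110, so its reads may be shared. AT2G42560 and AT1G72100 rose 1.45-fold and 1.57-fold from 5.51 ± 0.42 and 4.35 ± 0.69 TPM. The call of AT1G72100 was lost without any 1 of Col replicates 2 and 3 and h3.3ko;HTR5 replicates 1 and 3 (adjusted p = 0.0541 to 0.126), and that of AT2G42560 without Col replicate 2 or h3.3ko;HTR5 replicate 1 (adjusted p = 0.0549 and 0.0600). COR15A, a cold-induced gene of the same class for a chloroplast protein, stood at 7.67 ± 0.98 and 7.21 ± 0.68 TPM and did not pass (limma adjusted p = 0.730). In the LEA_1 class both relatives of LEA4-5 rose. LEA4-2 went from 31.3 ± 5.6 to 47.7 ± 5.22 TPM (limma adjusted p = 0.00876). LEA4-1 went from 12.1 ± 3.47 to 19.0 ± 1.77 TPM (limma adjusted p = 0.0394), a call lost without any 1 of the h3.3ko;HTR5 libraries (adjusted p = 0.0588 to 0.130).

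Of the 10 LEA genes that fell, 9 stood at 87.3 TPM or more in Col, all except M17, while the 13 that rose stood at 2.33 to 31.3 TPM. ERD14, AT2G44060 and RAB18 also stood above 87.3 TPM in Col, at 526, 203 and 130 TPM, and did not pass. Calls by level were not counted over all tested genes. Of the 6 further dehydrin genes 3 fell and none rose. HIRD11, a small dehydrin gene with a histidine-rich product, was the most abundant and read 695, 760 and 734 TPM in Col and 511, 572 and 522 TPM in h3.3ko;HTR5 (log2 fold change of -0.45, SE 0.05, with an adjusted p of 5.99e-04 in limma). ERD10 read 182, 165 and 158 TPM in Col and 94.9, 92.5 and 86.7 TPM in h3.3ko;HTR5, a decrease of 1.84-fold on the means, the same factor as that of LTI30. COR47, which lies next to ERD10, fell by 0.50 on the log2 scale (limma adjusted p = 5.07e-04 for COR47 and 3.88e-05 for ERD10). The 3 further dehydrin genes that did not pass, AT2G21490, AT4G38410 and AT4G39130, stood at 2.95, 0.87 and 1.07 TPM in Col. Their log2 fold changes were 0.42, 0.23 and 0.44 (limma adjusted p = 0.217 to 0.486). Dehydrin transcripts in sum came to 1887 to 2005 TPM over the Col libraries and 1505 to 1618 TPM over the h3.3ko;HTR5 libraries. LEA_4 transcripts in sum came to 110 to 150 and 195 to 213 TPM. All 3 tested genes of the LEA_3 class fell: AT1G02820 from 155 ± 20.4 to 114 ± 2.61 TPM, DI21 from 102 ± 4.06 down to 74.1 ± 8.36 TPM, and SAG21, also induced in senescence, from 102 ± 0.22 down to 88.3 ± 5.91 TPM. The call of SAG21 (limma adjusted p = 0.0392) was lost when any library but h3.3ko;HTR5 replicate 2 was left out (adjusted p = 0.0688 to 0.147). Of the 10 alternatives that kept all libraries SAG21 passed in 6, and quantile normalization was among those that lost the call (adjusted p = 0.125). AT2G23120, of the LEA_6 class, fell from 401 ± 24.4 to 248 ± 16.8 TPM (limma adjusted p = 1.37e-04). M17 fell from 3.96 ± 0.23 TPM in Col to 0.87, 0.49 and 2.41 TPM in h3.3ko;HTR5, and its call was lost without Col replicate 2 (adjusted p = 0.0508). AT2G23120 and SAG21 each overlap another gene. The 13 LEA genes that were not tested had a mean under 1 TPM, and 3 of them had no read in any library.

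**Figure D2:**
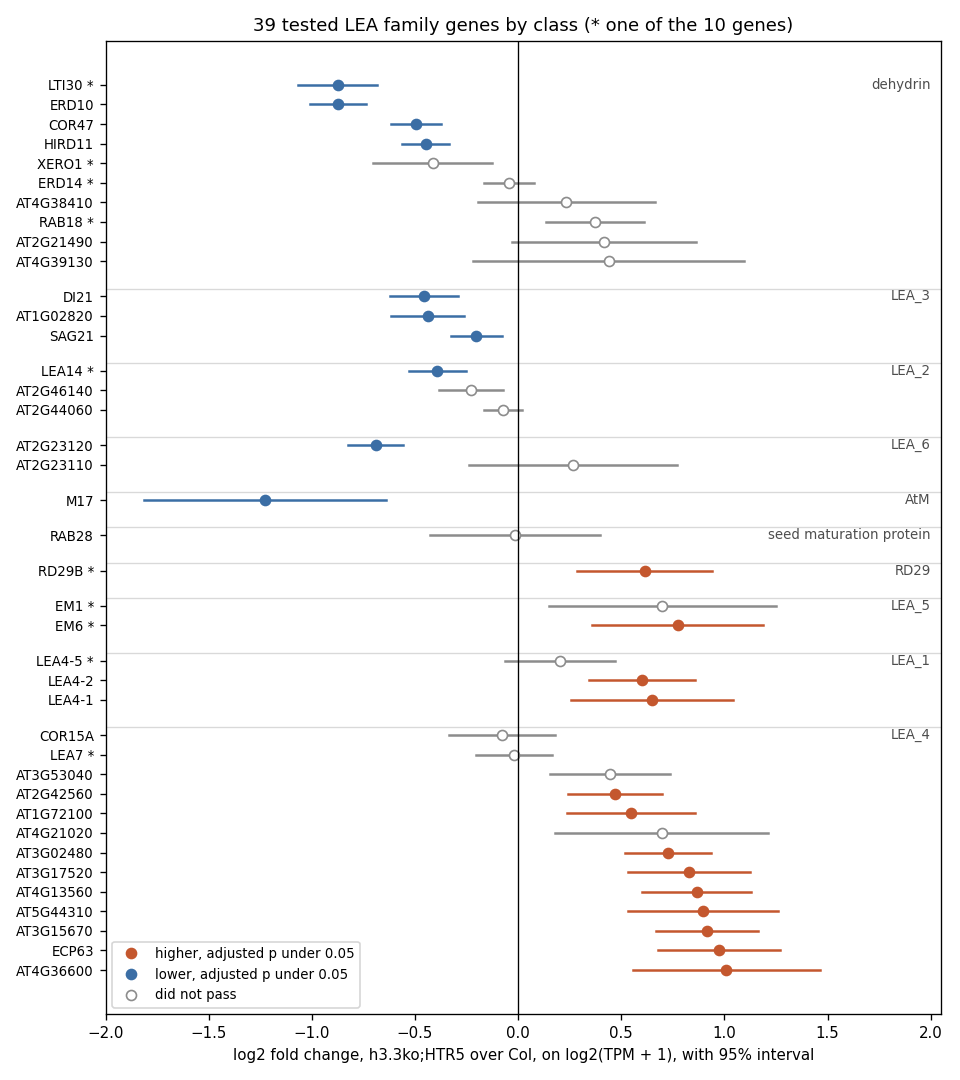
Log2 fold change of the 39 tested LEA family genes, h3.3ko;HTR5 over Col on log2(TPM + 1), with 95% intervals, grouped by class; filled points passed the test and stars mark the 10 genes. Filled points of the dehydrin and LEA_3 classes lie left of 0, and those of the LEA_1, LEA_4 and LEA_5 classes lie right of 0.

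Among the 39 tested LEA genes, those that rose and those that fell differed in the ABRE core within 250 bases upstream of the annotated gene start. The motifs searched were ACGTG for the ABRE core, CCGAC for the DRE core and CATGCA for the RY core, each on both strands. Overlapping matches such as those of CACGTG counted as 1 place. Of the 13 genes that rose 12 (92.3%) had at least 2 ABRE core places, and the exception was AT4G13560 with none. Of the 10 genes that fell 1 (10%) had at least 2, namely LEA14, and 7 had none. Among the 16 that did not pass the share was 43.8%, and AT3G53040, LEA7 and LEA4-5, with 5, 4 and 3 places, are among these. At least 1 ABRE core was present in 15 (93.8%) of these 16, in 12 of the 13 that rose and in 3 of the 10 that fell. At that cutoff the genes that rose and those that did not pass were thus alike. For comparison, 5.70% of the 18923 tested protein-coding genes had at least 2 places in such a window, and 23.9% had at least 1. Tested genes with 2 or more places that lie outside the LEA family were counted in the same way. Of these 1058 genes 4.25% were higher and 11.3% lower, against 3.56% and 7.76% of genes with no place. The DRE core was present upstream of 8 of the 13 LEA genes that rose and 2 of the 10 that fell. It was also present in 7 of the 16 that did not pass and in 13.0% of tested genes. LTI30 was the only one of the 10 that fell with more than 1 DRE core. The RY core was present upstream of 3 of the 13 LEA genes that rose and 1 of the 10 that fell. It was also present in 3 of the 16 that did not pass and in 7.52% of tested genes. These are matches of letters in a fixed window, the calls are those of the expression test, related genes share ancestry, and no test was made.

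**Figure D3:**
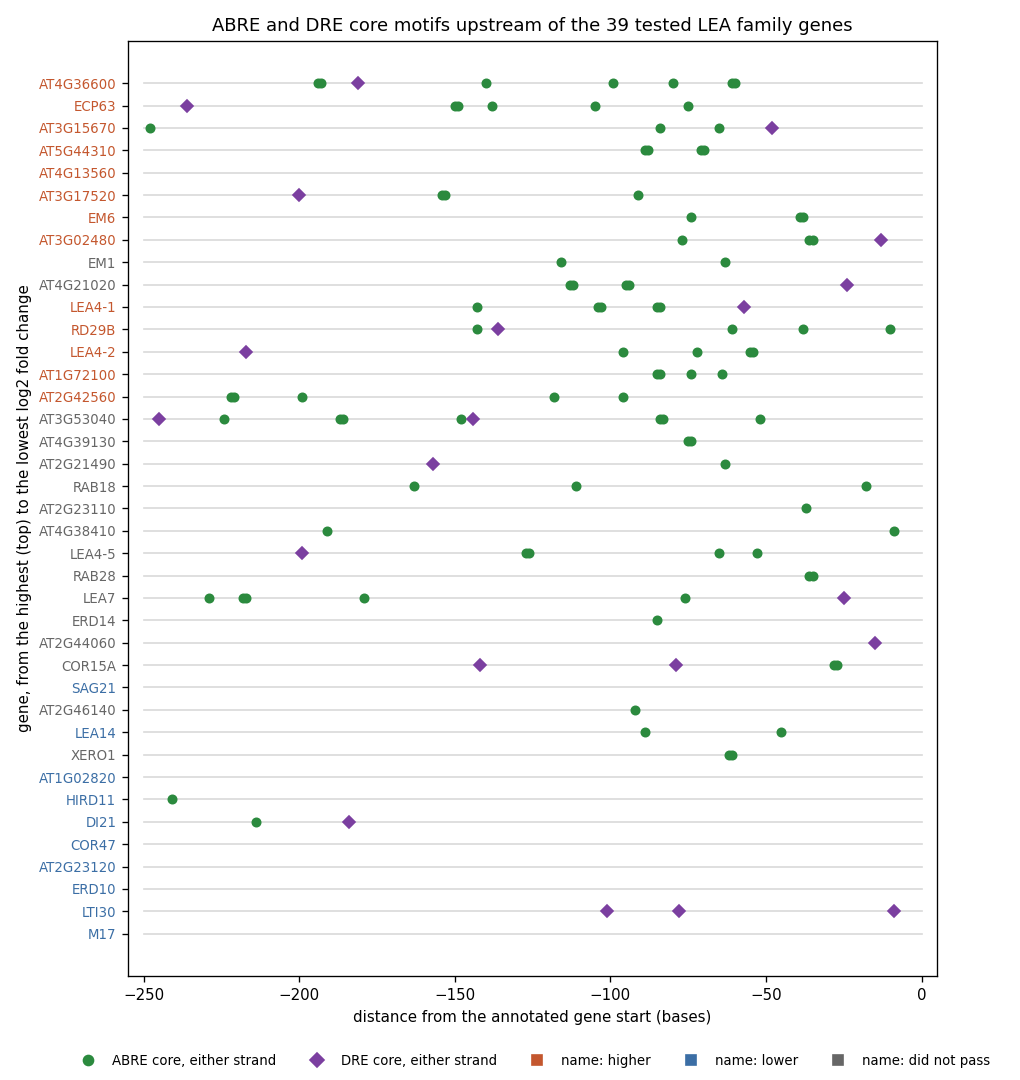
Positions of the ABRE core (circles) and the DRE core (diamonds) on either strand in the 250 bases upstream of the annotated start of the 39 tested LEA family genes, sorted from the highest log2 fold change at the top to the lowest at the bottom; the x axis is the distance from the gene start in bases and name colours give the call. Touching circles are 1 place. Names of genes that rose have 2 or more circles in 12 of 13 cases, while 7 of the 10 names of genes that fell have no circle.

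Of the tested ABA regulators 0 of 10 were called, and of the genes of ABA synthesis and breakdown 2 of 9, beside 12% of all tested genes; counts this small are no result about these lists. None of the 10 tested regulators passed with limma (2 at an unadjusted p under 0.05, and with voom 1 lower and none higher). ABI5, the bZIP factor of seeds and germination, stood at 2.44 ± 0.72 TPM in Col and 3.24 ± 1.05 TPM in h3.3ko;HTR5 (limma adjusted p = 0.440). ABF3, the most abundant bZIP gene of the list, stood at 146 ± 7.29 and 137 ± 4.94 TPM (limma adjusted p = 0.255). ABF1 had 3.54 ± 0.39 TPM in Col and 2.24 ± 0.68 TPM in h3.3ko;HTR5 (limma adjusted p = 0.0856, and lower with voom). Among 9 tested genes of ABA synthesis and breakdown, CYP707A1 fell and CYP707A2 rose; both encode 8′-hydroxylases that inactivate ABA. CYP707A1 read 9.21, 10.7 and 11.6 TPM in Col and 5.80, 5.33 and 5.16 TPM in h3.3ko;HTR5 (log2 fold change of -0.83, SE 0.11, with an adjusted p of 0.00118 in limma). CYP707A2 went from 2.81 ± 0.18 to 4.21 ± 0.16 TPM (limma adjusted p = 0.0376), a call lost whichever library was left out (adjusted p = 0.0657 to 0.129). NCED3, the drought-induced enzyme of ABA synthesis, stood at 7.78 ± 1.46 and 6.69 ± 0.63 TPM (limma adjusted p = 0.426).

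Of 14 ABA and drought targets outside the LEA family 7 fell and 1 rose, beside 8.32% and 3.7% of all tested genes. The homeobox genes HB12 and HB7, which ABA induces, both fell. HB12 stood at 85.2 ± 10.4 TPM in Col against 50.7 ± 3.79 TPM in h3.3ko;HTR5 (limma adjusted p = 7.33e-04), and HB7 at 65.4 ± 2.62 against 52.2 ± 1.20 TPM (limma adjusted p = 0.00404). RD20, a caleosin gene, fell from 25.2 ± 1.37 to 20.5 ± 0.19 TPM, a call lost in 5 of 6 fits with 1 library left out (adjusted p = 0.0632 to 0.0719), all but that without Col replicate 3. RD29A, the tandem neighbour of RD29B, which answers to cold as well, read 31.2, 29.9 and 32.4 TPM in Col and 19.4, 21.0 and 19.3 TPM in h3.3ko;HTR5 (log2 fold change of -0.62, SE 0.07, with an adjusted p of 4.73e-04 in limma). RD29A and RD29B thus stood at 31.2 against 17.3 TPM in Col and at 19.9 against 26.5 TPM in h3.3ko;HTR5. KIN1, KIN2 and RD22 fell too, and HIS1-3, a linker histone gene induced by drought, rose 4.05-fold.

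Markers of seed and embryo, of guard cells and of roots were read beside these genes, since LEA genes are expressed in several of these. Of 14 seed maturation genes only 3 were tested. The regulator gene LEC1 and the storage protein gene CRU2 were at 0 in all 6 libraries. CRA1, a storage globulin gene, read 0.74, 0.83 and 0.38 TPM in Col and 3.33, 1.23 and 4.68 TPM in h3.3ko;HTR5 (log2 fold change of 1.21, SE 0.31, with an adjusted p of 0.0292 in limma). CRA1 reached the mean of 1 TPM only through h3.3ko;HTR5, and that call was lost without any 1 library but h3.3ko;HTR5 replicate 2 (adjusted p = 0.0531 to 0.111). CRU3 had no reads in Col and 15, 0 and 44 reads in h3.3ko;HTR5. SESA5, another gene of the list, had no reads in Col and 2, 0 and 9 reads in h3.3ko;HTR5. SESA4 and FUS3 had reads in Col only, at most 2 a library. The seed list in sum came to 8.66 to 13.1 TPM over Col and 11.1 to 22.8 TPM over h3.3ko;HTR5, so the groups overlapped. Most of that sum came from PER1 and OLEO2, the 2 tested seed genes that did not pass. Their means were 6.82 and 2.68 TPM in Col and 8.72 and 2.52 TPM in h3.3ko;HTR5. The h3.3ko;HTR5 library with the lowest seed sum, replicate 2, was also the lowest of its group for EM6, EM1, RD29B and RAB18. These are the 4 of the 10 genes that were higher without overlap, so in them every h3.3ko;HTR5 library lay above every Col library by definition. XERO1 was lowest in replicate 2 as well, while ERD14, LTI30, LEA4-5, LEA7 and LEA14 were lowest in replicate 1. Of 6 guard cell genes only KAT1, a potassium channel gene, passed, and it fell from 12.6 ± 0.91 to 8.52 ± 0.66 TPM. The guard cell list in sum came to 65.5 to 74.6 TPM and 55.1 to 61.8 TPM. None of 8 root genes passed (limma, 0 at an unadjusted p under 0.05, and 0 with voom), with sums of 125 to 136 TPM and 125 to 134 TPM. The calls in 1 of 3 tested seed genes, 1 of 6 guard cell genes and 0 of 8 root genes stand beside 12% of all tested genes. Counts this small are no result about these cell types. The part of these cell types in the LEA results was not tested.

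Libraries of wild type differed among themselves in these genes. Col replicate 1 was the highest Col library for 8 of the 10 genes, the exceptions being XERO1 and EM1, and for 11 of 13 tested LEA_4 genes, beside 43.8% of all tested genes. Without Col replicate 1, 5 of the 10 genes were called, with RAB18 as the addition, and RD29B and EM6 had log2 fold changes of 0.81 and 0.99 in place of 0.61 and 0.77. The part of this library in the results with all libraries was not tested beyond that.

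**Figure D4:**
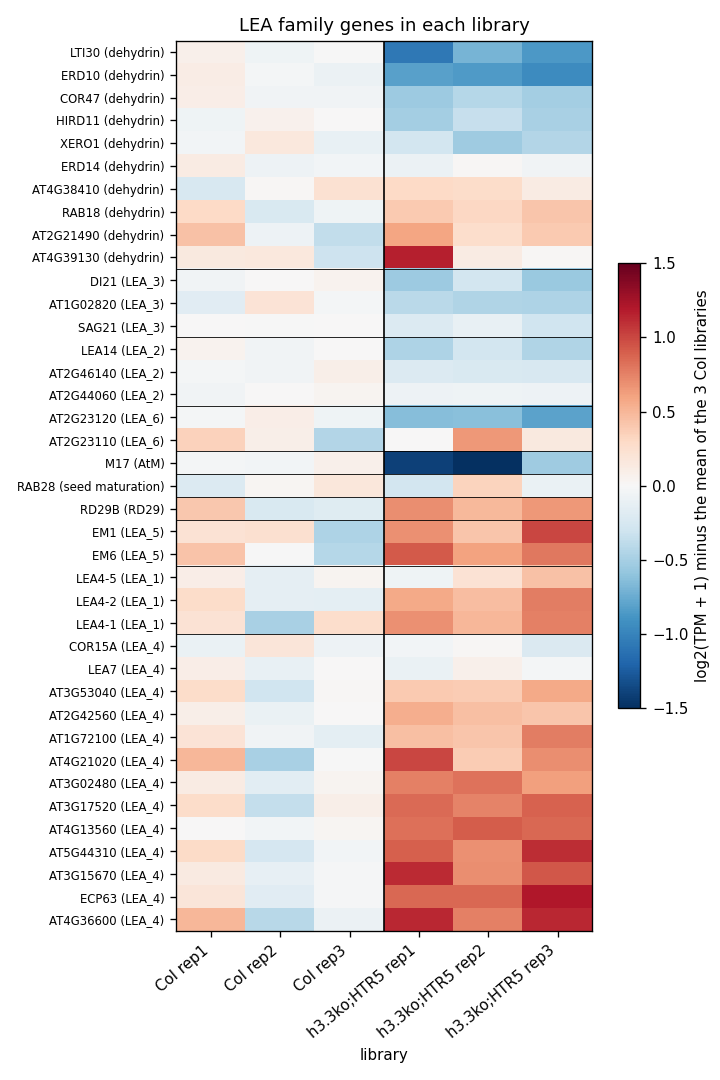
Log2(TPM + 1) of the 39 tested LEA family genes in each library minus the mean of the 3 Col libraries, by class; red is above and blue below that mean, and the scale ends at 1.5. The h3.3ko;HTR5 columns are blue for LTI30, ERD10, COR47 and HIRD11 and red for most LEA_4 genes, and Col replicate 1 is the reddest Col column in the LEA_4 rows.

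The genes outside the 10 whose levels ran most like those of RAB18 over the 6 libraries were KLCR2, AT1G15240, CPSF160, AT2G37520 and GGT1. Pearson's r of log2(TPM + 1) was 0.999, 0.998, 0.996, 0.996 and 0.992, the 5 highest among 15006 genes with a mean of at least 5 TPM. With 6 libraries in 2 groups such values are a description only. None of the 5 is in the ABA lists, and their ranges were narrow, as in CPSF160 with 10.1 to 10.9 TPM against 109 to 171 TPM for RAB18.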

How the data were processed

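RNA-seq of 6 seedling libraries (3 Col, 3 h3.3ko;HTR5) was analysed from 1 table. Its values are TPM that the authors deposited, each library adding to 1000000. HISAT2 2.1.10, fastp 0.20.1 and DESeq2 1.26.0, and the build TAIR10, appear in the submitters' processing notes; the read counter and its strand setting are not given in these sources. With gene spans of the TAIR10.1 annotation, 22980 of 22985 expressed genes (99.98%) gave whole reads in all libraries within 0.02 reads, and voom on these reads called 2899 of 18920 genes. Depth was 13792031 to 14498093 reads per library, and read numbers cover counting error only.

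Log2(TPM + 1) of the 19013 genes whose TPM averaged 1 or more was fitted with limma 3.58.1 (R 4.3.3; lmFit, eBayes with a variance trend, no replicate block), two-sided, with Benjamini-Hochberg adjustment over all tested genes and a threshold of 0.05. Fold changes on that scale understate the change of low genes. The script was checked on simulated reads. Named were the 10 genes, the list members that passed (up to 6 a list, all for LEA genes) and the 5 genes most like RAB18; others named beside them (list members that did not pass, such as COR15A, ABI5, ABF1, ABF3, NCED3 and CRU3, and ABA targets that passed beyond the first 6, RD20 and RD22) were chosen after their values were seen. The members and lists were chosen with earlier results of these data known, and the LEA classes, which follow Pfam, and the motif search were added after the values were seen. Sequences were read from the TAIR10.1 genome, whose nuclear chromosomes are those of TAIR10. Libraries of 1 group differed beyond counting noise (2.13 to 3.91 as chi-square over its degrees of freedom). The alternatives were other pseudocounts, filters, scalings, variance priors, voom on reads, a replicate block and leaving out each library.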

Additional observations from a re-analysis of the deposited data

How the results depend on the processing

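The decreases of LTI30 and LEA14 kept their direction and passed under all 16 alternatives, with log2 fold changes of -0.97 to -0.78 and -0.45 to -0.34. RD29B kept its direction in all 16 and passed in 11, and EM6 kept its direction in all 16 and passed in 10 (log2 fold changes 0.50 to 0.81 and 0.56 to 0.99). RAB18 did not pass in the main test and passed in 7 of 16. Leaving out 1 library gave 2 to 5 calls among the 10 genes in place of 4, 15 to 21 among the further LEA genes in place of 19, and 1289 to 2068 over all genes in place of 2285. Without a variance trend 2 of the 10 genes and 1443 genes in all were called. A replicate block gave 5 calls among the 10 genes, 19 among the further LEA genes and 1851 over all genes, and RAB18 passed with it (adjusted p = 0.0185). The labels of same-numbered libraries share only that number. Deviations of same-numbered libraries from their group means correlated between -0.04 and 0.02, which cannot show whether they were grown or prepared together. No called gene of these lists changed sign under any alternative. The LEA_4 class had 7 to 11 genes higher and none lower under all alternatives, and the dehydrin class had 4 lower under all and 1 or 2 higher in 7 of 16. The causes of lost calls were not tested. EM1 and XERO1 rest on few reads, and whether depth limits their calls was not tested. EM1 could not be tested without h3.3ko;HTR5 replicate 3, where its mean fell under 1 TPM.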
